A study of Mus musculus with 11 samples.

Results

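Matrix proteases and their inhibitors were followed through 10 genes in BV2 cells, an immortalised mouse microglial line, and all 10 were among the 26061 genes of the deposited table. They are the secreted metalloproteases Mmp9, Mmp12 and Mmp13, the membrane-bound metalloprotease Mmp14, the metalloprotease inhibitors Timp1 and Timp2, the membrane sheddases Adam8 and Adam17, the urokinase gene Plau and its receptor gene Plaur. The rule is a list of symbols. They were chosen by name with the LPS and Tet2 siRNA differences of these same libraries already known, and which of those values weighed in the choice is not recorded. Tests below are adjusted over all genes and describe the members; they are not independent of that choice. Of the 10 members, 9 had enough reads to be tested, and those 9 also met the filter on low values in untreated control siRNA cells alone. Timp1 did not meet it.

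Matrix metalloproteases are zinc enzymes that are made as inactive precursors and cut collagens, elastin, gelatins and other matrix proteins once a propeptide is removed. TIMP proteins bind their active sites, MMP14 at the cell surface activates other metalloproteases, and ADAM17 releases membrane-bound TNF and other proteins from the cell surface. Urokinase, held on cells by its receptor, turns plasminogen into plasmin. In microglia these genes are known for matrix remodelling, migration and the release of cytokines during inflammation.

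Polyadenylated RNA was sequenced from 4 groups, which all share lipofection with an siRNA and the same cell line. Cells with a non-targeting control siRNA (siScr) gave 3 untreated libraries and 3 libraries treated with 1 µg/ml lipopolysaccharide (LPS), a bacterial Toll-like receptor 4 ligand, for 3 h. Cells with siRNA against Tet2 (siTet2), the gene of a 5-methylcytosine dioxygenase, gave 3 untreated libraries and 2 LPS-treated ones, replicates 2 and 3. LPS was given 48 h after transfection in medium with 5% serum. BV2 is a single immortalised line, and whether replicates came from separate cultures is not stated, so that p-values reflect only the variation among these libraries, which may be technical. The 11 libraries held 8739716 to 23030426 reads on genes. Replicate 3 of the untreated control siRNA cells stood apart with 16406 genes detected, against 12866 to 14180 in the other 10 libraries, at 8764031 reads. Replicate 2 of the untreated Tet2 siRNA cells had the fewest reads, 8739716, and the fewest genes detected, 12866. Normalised Tet2 reads were 1827 to 2399 in untreated control siRNA cells and 1453 to 1988 in untreated Tet2 siRNA cells, ranges that overlapped. After LPS they were 10405 to 16792 with control siRNA and 7969 and 9238 with Tet2 siRNA. Of 9 microglia and macrophage markers, 8 were in the table and were expressed, including Cd68 and Csf1r, whereas P2ry12 had at most 18 reads in a library and Tmem119 at most 43. Neutrophil markers had at most 3 reads in any library. Of the endothelial markers Kdr was expressed, with at most 6696 reads in a library, and Cldn5 had 0 reads in every library. In these bulk libraries, fewer expressing cells and less RNA per cell cannot be told apart.

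The members differed widely in level, with the urokinase gene at the top and Timp1 at the bottom. Levels between genes are given as normalised reads per kb of exons. In untreated control siRNA cells Plau had the highest level, at 4609 ± 894 normalised reads per kb (SD, n = 3). Adam8 followed at 1574 ± 544 (SD, n = 3) and Adam17 at 1412 ± 213 (SD, n = 3), and the libraries of these sheddase genes overlapped. Next came Timp2 at 392 ± 54.7 (SD, n = 3) and Plaur at 284 ± 137 (SD, n = 3), which also overlapped. Mmp12, macrophage elastase, was the most abundant matrix metalloprotease among the 10 at 131 ± 13.3 normalised reads per kb (SD, n = 3) and lay apart from its neighbours in the order. Mmp9, gelatinase B, stood at 10.9 ± 5.25 (SD, n = 3), Mmp13, a collagenase, at 6.75 ± 3.83 (SD, n = 3) and Mmp14 at 6.37 ± 0.993 (SD, n = 3), and these last 3 levels overlapped. After LPS in control siRNA cells the order of levels was Plau, Adam17, Adam8, Plaur, Mmp12, Timp2, Mmp13, Mmp14 and Mmp9. There Mmp13 reached 293 ± 115 normalised reads per kb (SD, n = 3), a range that overlapped that of Timp2 at 343 ± 52.7 (SD, n = 3). Adam8 overlapped Plaur, and Mmp12 overlapped Timp2.

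**Figure D1:**
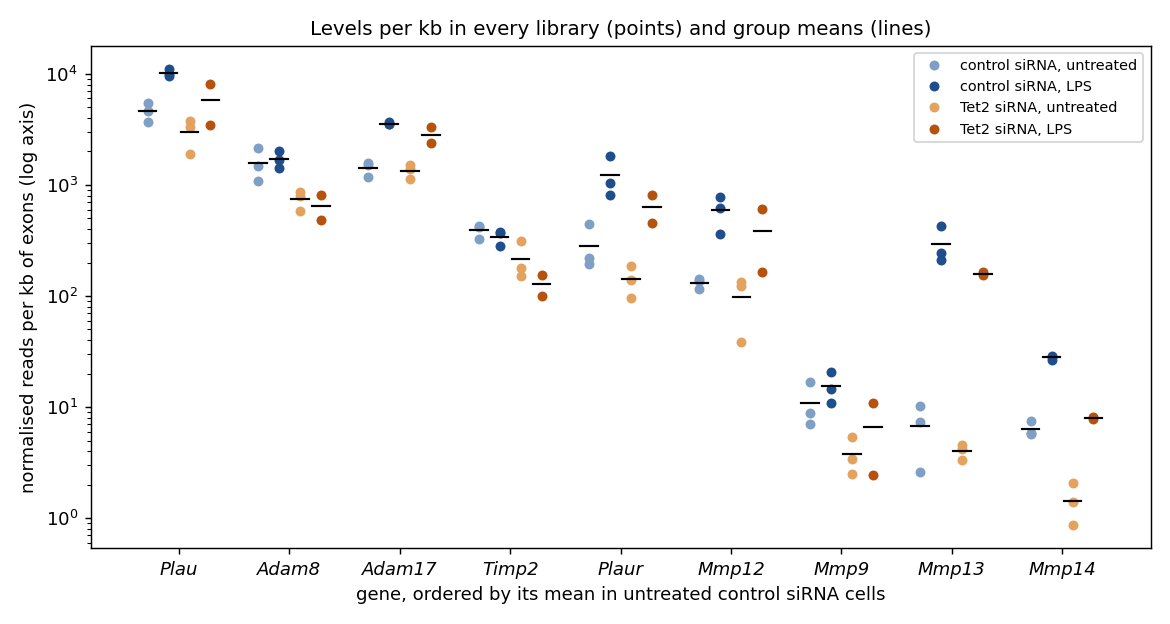
Normalised reads per kb of exons on a log axis for the 9 members with reads in every library, in the 4 groups. Points are libraries and lines are group means. Plau is highest in every group, and Mmp9, Mmp13 and Mmp14 are lowest before LPS.

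Timp1 was barely detected in any group. No untreated library of either siRNA held a Timp1 read (0 of 6 libraries), which allows up to 3 reads over each group of 3 libraries by counting error alone. After LPS it had 1, 3 and 0 reads in control siRNA cells and 1 and 0 reads in Tet2 siRNA cells. No fold is given, because Timp1 did not pass the filter and no library held more than 3 of its reads. Its relative Timp2 was abundant, with 370 to 1596 normalised reads. The other TIMP genes, Timp3 with at most 8 reads in a library and Timp4 with at most 1, did not pass the filter either.

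The first comparison was LPS against no treatment in control siRNA cells. The metalloprotease genes Mmp12, Mmp13 and Mmp14, the sheddase gene Adam17, and Plau with Plaur rose, while Mmp9, Timp2 and Adam8 did not pass. That is 6 of the 9 tested members higher and 0 lower (limma, adjusted p under 0.05), where 13.2% of the 12486 genes tested were higher and 10.4% lower. The median difference of the 9 tested members was 1.34 on the log2 scale, against -0.02 over all genes. The libraries of the 6 genes did not overlap, as was so for 19.2% of genes tested, higher with LPS, and for 18.3%, lower. Differences are between variance-stabilised log2 values, a scale that compresses changes of genes with few reads, so ratios of mean normalised reads are given beside them.

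Mmp13 changed most. Its normalised reads were 19.8, 27.2 and 7.03 in untreated control siRNA libraries and 648, 1133 and 565 after LPS. Every LPS-treated library thus lay far above every untreated one. The ratio of means was 43.4-fold and the log2 difference 4.18 (SE 0.26, limma adjusted p = 1.51e-07). Mmp12 had 462, 542 and 562 normalised reads untreated and 1437, 2478 and 3113 after LPS, again with no overlap. Its log2 difference was 2.04 (SE 0.47, adjusted p = 0.00695) and its ratio of means 4.49-fold. Mmp14 rose from 23.9, 31.4 and 24.6 to 121, 119 and 111 normalised reads, a 4.40-fold ratio with the tightest LPS-treated libraries of the matrix metalloproteases among the members. Its log2 difference was 1.45 (SE 0.17, adjusted p = 3.37e-05). Mmp9, which is well known as inducible in macrophages, had 53.7, 22.4 and 28.1 normalised reads untreated and 66.4, 46.3 and 34.3 after LPS. Those groups overlapped and the log2 difference was 0.33 (SE 0.28, adjusted p = 0.451).

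Mmp12 and Mmp13 are neighbours in a run of 10 metalloprotease genes in the RefSeq table, in the order Mmp13, Mmp12, Mmp1b, Mmp3, Mmp1a, Mmp10, Mmp8, Mmp27, Mmp20 and Mmp7. Only the pair at the Mmp13 end had high counts, with 3294 reads of Mmp13 and 12977 of Mmp12 over all 11 libraries. Mmp8 had 193, Mmp27 had 35, Mmp10 had 10, Mmp20 had 6, Mmp1b had 2, and Mmp3, Mmp1a and Mmp7 had 0.

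Promoters, 250 bases before to 50 after an annotated start, were found in RefSeq (GRCm38.p6) for 8 of the 10 members, Mmp9 and Plau having no entry there. Printed are the promoters of Mmp13, Mmp12 and Plaur, chosen after the search because they held the AP-1 letters, and that of Mmp14 because it had the smallest p of all genes for the Tet2 siRNA difference over both treatments. Of 5 motifs searched on both strands, the AP-1 site TGAGTCA occurs in 5.20% of the 32851 promoters of this length. AP-1, the Fos and Jun family, is a textbook regulator of collagenase genes. The TATA box, searched as TATAAA, occurs in 13.6%. The PU.1 site GAGGAAGT occurs in 3.20%, the CRE site TGACGTCA in 1.79%, and the NF-kB consensus, in its degenerate form, in 4.505%. Only the 250 bases before each start are printed. Capitals mark motif matches, each sequence runs 5′ to 3′ on the gene's strand, and the coordinates are of the RefSeq build, not of the deposited table's mm9.
Mmp13, chr9:7272264-7272513, plus strand: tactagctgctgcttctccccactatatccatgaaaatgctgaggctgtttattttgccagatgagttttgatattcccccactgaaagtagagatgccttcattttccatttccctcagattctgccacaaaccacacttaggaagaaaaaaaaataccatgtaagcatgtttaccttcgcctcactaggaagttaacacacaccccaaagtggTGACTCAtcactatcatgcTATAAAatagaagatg
Mmp12, second annotated start, chr9:7347124-7347373, plus strand: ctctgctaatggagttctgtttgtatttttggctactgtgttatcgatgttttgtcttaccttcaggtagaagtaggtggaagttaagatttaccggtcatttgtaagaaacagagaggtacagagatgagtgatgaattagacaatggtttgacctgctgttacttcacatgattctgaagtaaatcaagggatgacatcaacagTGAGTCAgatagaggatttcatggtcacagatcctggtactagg
Plaur, chr7:24462233-24462482, plus strand: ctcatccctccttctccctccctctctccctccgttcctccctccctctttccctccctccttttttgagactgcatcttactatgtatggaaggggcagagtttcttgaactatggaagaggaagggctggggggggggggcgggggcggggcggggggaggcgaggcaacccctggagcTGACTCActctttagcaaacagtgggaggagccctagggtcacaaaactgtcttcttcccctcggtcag
Mmp14, chr14:54431348-54431597, plus strand: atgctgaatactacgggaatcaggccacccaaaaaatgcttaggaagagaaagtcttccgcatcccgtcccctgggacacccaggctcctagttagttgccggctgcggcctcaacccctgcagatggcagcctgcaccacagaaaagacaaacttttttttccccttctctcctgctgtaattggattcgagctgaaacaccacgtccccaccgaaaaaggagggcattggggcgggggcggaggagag
The Mmp13 promoter held the AP-1 letters at -35 to -29 and the letters TATAAA at -16 to -11, counted from the annotated start. At its second start Mmp12 held the AP-1 letters at -44 to -38 and the letters TATAAA at 5 to 10, after that start and outside the printed bases. The first Mmp12 start, not shown, held the PU.1 letters at -88 to -81. Plaur held the AP-1 letters at -69 to -63. Promoters of Mmp14, Timp1, Timp2, Adam8 and Adam17 held none of the 5 motifs, which says only that these letters are not in this window. CG dinucleotides, where most methylated cytosines of mammalian DNA lie, numbered 1 in the Mmp13 promoter, 3 at the second Mmp12 start, 0 at the first, 7 in Plaur, 10 in Mmp14, 6 in Adam8, 8 in Timp1, 25 in Timp2 and 30 in Adam17, against a median of 7 over all promoters. Methylation was not measured here.

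Adam17 and the urokinase pair rose less than Mmp13 in fold and from higher levels. Adam17 had 7069, 6752 and 5270 normalised reads untreated and 16604, 15827 and 15804 after LPS in control siRNA cells. Those libraries lay apart, with a 2.53-fold ratio of means and a log2 difference of 1.34 (SE 0.18, adjusted p = 1.08e-04). Adam8, another sheddase gene of myeloid cells, had 3358, 4648 and 6718 normalised reads untreated and 6275, 5217 and 4411 after LPS. The Adam8 groups overlapped, and the log2 difference was 0.15 (SE 0.26, adjusted p = 0.730), which was -0.23 with quantile normalisation. Plau had 8698, 12884 and 10800 normalised reads untreated and 22250, 25993 and 23123 after LPS, a 2.20-fold ratio without overlap. Its log2 difference was 1.15 (SE 0.30, adjusted p = 0.0143). Plaur had 290, 329 and 666 normalised reads untreated and 2725, 1577 and 1213 after LPS, a 4.29-fold ratio without overlap, and a log2 difference of 2.03 (SE 0.35, adjusted p = 9.61e-04). The highest untreated Plaur and Adam8 values were those of replicate 3, the library that stood apart. Without it the Plaur difference was 2.38 (adjusted p = 5.27e-04) and the Adam8 difference 0.41 (adjusted p = 0.302).

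Timp2, which binds MMP14 and MMP2, had 1542, 1596 and 1221 normalised reads untreated and 1355, 1411 and 1048 after LPS in control siRNA cells. The groups overlapped, and the log2 difference was -0.19 (SE 0.25, adjusted p = 0.642). Within a library, the Mmp14 value minus the Timp2 value lay between -4.94 and -4.59 log2 units untreated and between -3.27 and -2.93 after LPS. This within-library difference is not per length, so only its change between groups can be read, and the groups lay apart. Plau minus Plaur lay between 3.96 and 5.16 log2 units untreated and between 3.01 and 4.22 after LPS, ranges that overlapped. All 6 calls held without the untreated library that stood apart. The Plau call ended without control siRNA replicate 1 untreated (1.01, adjusted p = 0.0573) or replicate 2 with LPS (1.09, adjusted p = 0.0532), with quantile normalisation (0.64, adjusted p = 0.145) and without a filter on low values (adjusted p = 0.112), and the Mmp12 call ended without a filter (adjusted p = 0.0903).

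**Figure D2:**
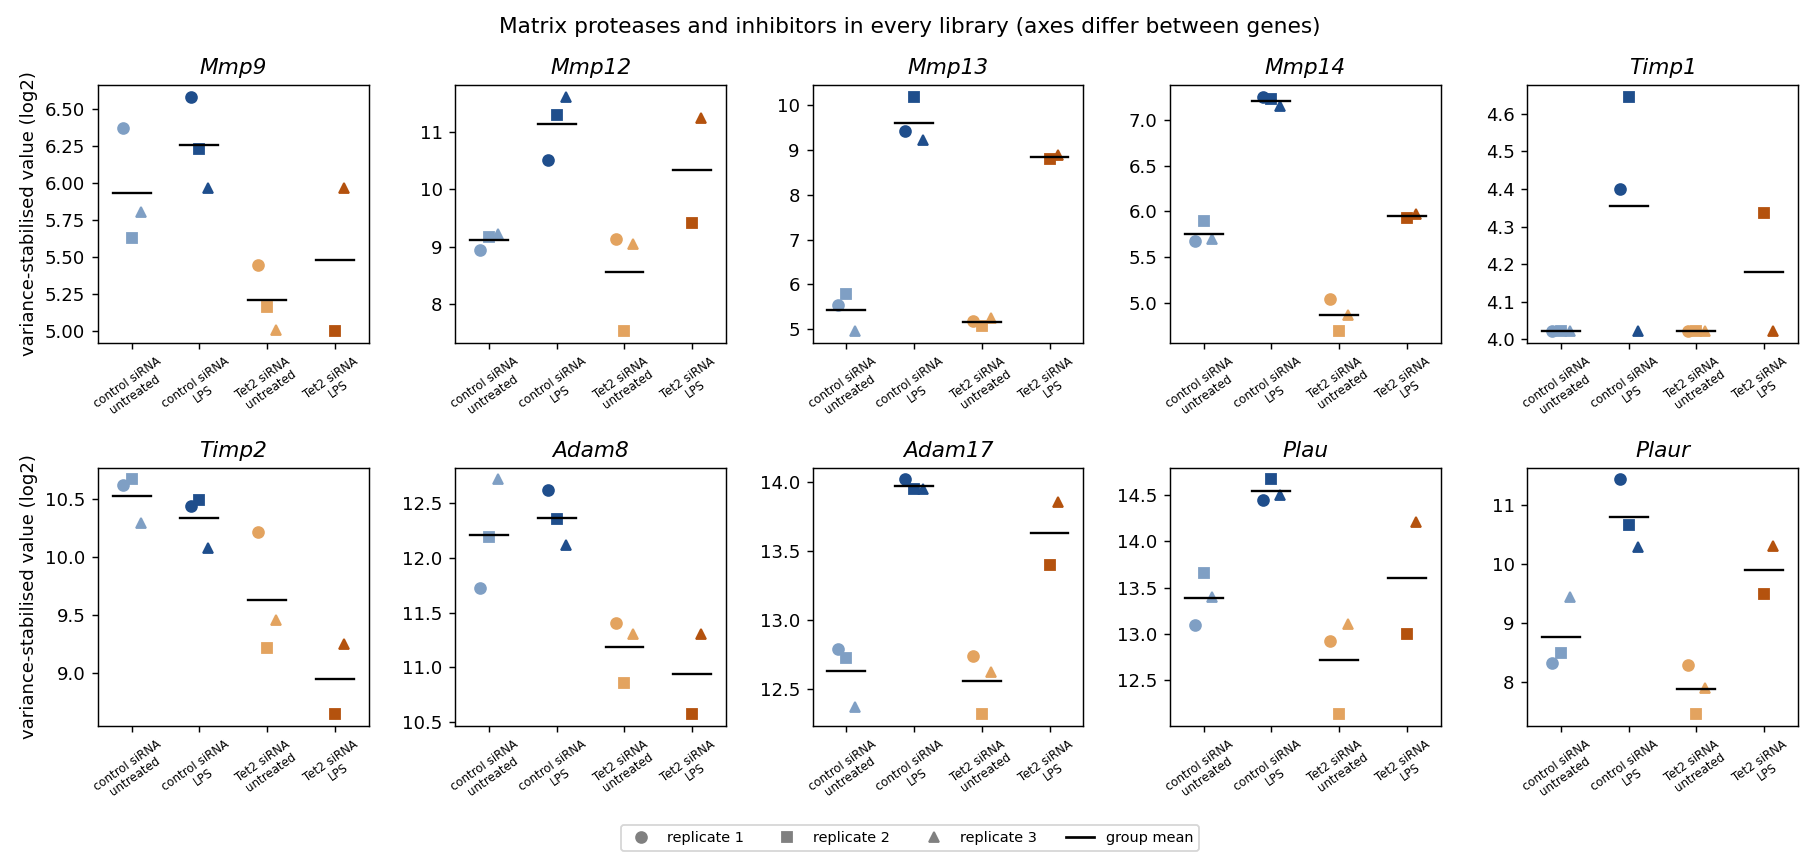
Variance-stabilised log2 values of the 10 members in each of the 11 libraries, with replicates as symbols and group means as lines, on axes that differ between genes. Mmp12, Mmp13, Mmp14, Adam17 and Plaur show LPS-treated libraries above the untreated ones in both siRNA groups. Mmp14, Timp2 and Adam8 show Tet2 siRNA libraries below the control siRNA ones in both treatments.

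The same LPS comparison was made in cells with siRNA against Tet2. Mmp12, Mmp13, Mmp14, Adam17 and Plaur rose, 5 of the 9 tested members with 0 lower (limma, adjusted p under 0.05), where 7.14% of genes tested were higher and 4.77% lower. The median difference of the tested members was 1.07, against -0.0014 over all genes. The libraries did not overlap in the same 5 members, as was so, higher with LPS, for 21.9% of genes tested and, lower, for 21.3%. There were only 2 LPS-treated libraries, and they differed in several members.

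Mmp13 had 11.2, 9.01 and 12.3 normalised reads in untreated Tet2 siRNA libraries and 413 and 438 after LPS. The LPS-treated libraries lay close together and far above the untreated ones, a 39.3-fold ratio and a log2 difference of 3.67 (SE 0.29, adjusted p = 2.70e-06). Mmp14 had 8.61, 3.60 and 5.79 normalised reads untreated, from 10, 2 and 8 reads, and 32.7 and 34.4 after LPS. That is a 5.59-fold ratio without overlap and a log2 difference of 1.08 (SE 0.19, adjusted p = 0.00166). Adam17 had 6815, 5089 and 6298 untreated and 10791 and 14816 normalised reads after LPS, a 2.11-fold ratio without overlap, with a log2 difference of 1.07 (SE 0.20, adjusted p = 0.00274). Plaur had 281, 146 and 209 untreated and 690 and 1229 normalised reads after LPS, a 4.52-fold ratio without overlap, with a log2 difference of 2.01 (SE 0.40, adjusted p = 0.00391).

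Mmp12 and Plau varied widely between libraries of the Tet2 siRNA cells. Mmp12 had 531, 153 and 495 normalised reads untreated and 653 and 2403 after LPS, and Plau had 7754, 4480 and 8786 untreated and 8169 and 18815 after LPS. Replicate 2, in the untreated group also the library with the fewest reads, was the lowest in both groups for both genes. The log2 difference of Mmp12 was 1.77 (SE 0.53, adjusted p = 0.0472), a call that held in 8 of 22 alternatives, over which the adjusted p ran from 0.00412 to 0.539. It ended when any of 8 libraries was left out, at the lowest with 0.85 (adjusted p = 0.539) without LPS-treated Tet2 siRNA replicate 3. It also ended with no filter (adjusted p = 0.307), quantile normalisation (0.0536), no variance trend (0.0527), only the groups compared (0.160), voom (0.0608) and without the 2 libraries with the fewest reads (0.144). The Plau groups overlapped, and its difference was 0.88 (SE 0.34, adjusted p = 0.131), or 1.19 (adjusted p = 0.0209) without replicate 2 of both Tet2 siRNA groups. Timp2 had 1153, 562 and 669 normalised reads untreated and 370 and 578 after LPS, with overlap, and a log2 difference of -0.68 (SE 0.28, adjusted p = 0.166). Adam8 had 2678, 1829 and 2492 untreated and 1494 and 2505 after LPS, also with overlap (-0.25, SE 0.30, adjusted p = 0.751). Mmp9 had 17.2, 10.8 and 7.97 untreated and 7.79 and 34.4 after LPS, the lowest and the highest values both being LPS-treated (0.28, SE 0.31, adjusted p = 0.732). Without LPS-treated Tet2 siRNA replicate 3, which leaves 1 library assumed to vary like the other groups, the Adam17 call ended at 0.84 (adjusted p = 0.0664) and the Plaur call at 1.61 (adjusted p = 0.0822), so that 2 members were called in place of 5.

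**Figure D3:**
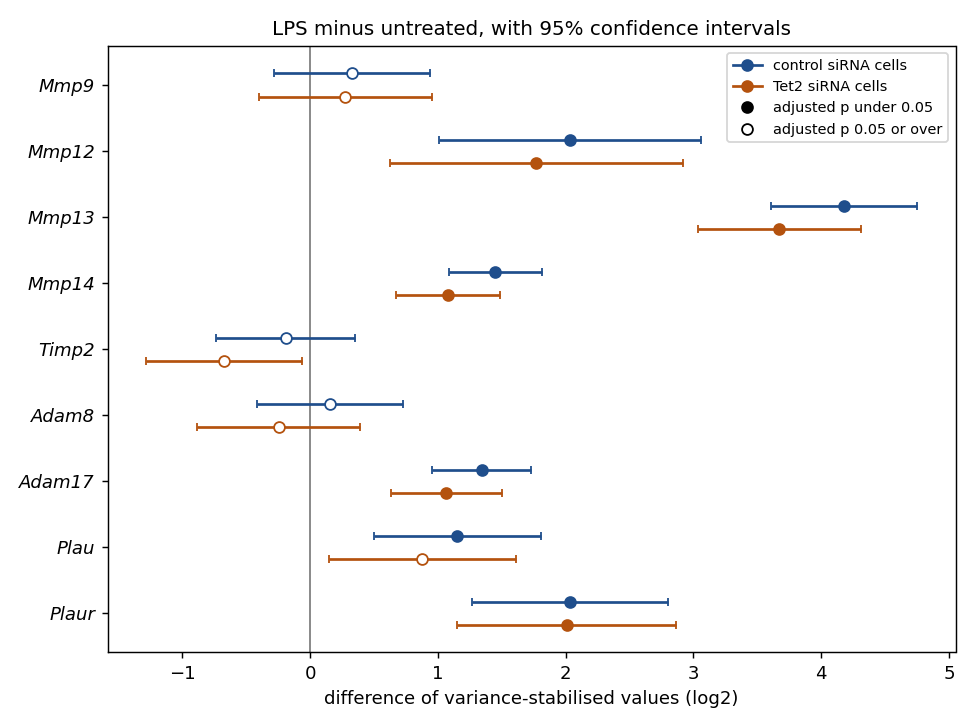
LPS minus untreated for the 9 tested members in control siRNA and Tet2 siRNA cells, as log2 differences of variance-stabilised values with 95% confidence intervals. Filled points passed an adjusted p of 0.05. Mmp13 stands highest in both at 4.18 and 3.67, and Mmp9, Timp2 and Adam8 are open in both.

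The difference between LPS responses, Tet2 siRNA cells minus control siRNA cells, passed for 0 of the 9 tested members, where 0% of genes tested were called in either direction (limma, smallest adjusted p over all genes 1.00; 0 members and 281 genes at an unadjusted p under 0.05, and 0 genes by voom). The intervals of single members were wide. The difference was -0.51 for Mmp13 (95% interval -1.36 to 0.35), -0.37 for Mmp14 (-0.92 to 0.17), -0.28 for Adam17 (-0.86 to 0.30), -0.02 for Plaur (-1.17 to 1.13) and -0.27 for Mmp12 (-1.81 to 1.27). It was -0.48 for Timp2 (-1.30 to 0.33), -0.40 for Adam8 (-1.26 to 0.46), -0.28 for Plau (-1.26 to 0.71) and -0.05 for Mmp9 (-0.96 to 0.86). All 9 lay below 0, with a median of -0.28, against -0.004 over all genes and 50.6% of genes below 0. Every interval included 0. That of Mmp14 had the opposite sign, 0.27, with voom on recovered reads. The Mmp14 ratio of mean normalised reads, LPS-treated to untreated, was 5.59-fold with Tet2 siRNA and 4.40-fold with control siRNA. An equal response is not shown by these values.

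Tet2 siRNA was compared with control siRNA first without LPS. None of the 9 tested members passed (limma, 0 higher and 0 lower, 6 of 9 at an unadjusted p under 0.05, and 0 by voom), where 0% of genes tested were higher and 0.00801% lower. All 9 differences lay below 0, with a median of -0.73, against -0.03 over all genes and 53.1% of genes below 0. In 5 members, Mmp9, Mmp14, Timp2, Adam8 and Plaur, every Tet2 siRNA library lay below every control siRNA library, as did 9.82% of all genes tested, while 7.82% lay wholly above. Replicate 2 of the untreated Tet2 siRNA cells, the library with the fewest reads, was the lowest of its group in every tested member except Mmp9.

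Mmp14 was lowest in proportion. The untreated control siRNA cells held 26.7 ± 4.15 normalised reads (SD, n = 3) and the Tet2 siRNA cells 6.004 ± 2.51 (SD, n = 3), 22.5% of the control mean, from 88 and 20 reads in all. Its log2 difference was -0.89 (SE 0.17, adjusted p = 0.335), the fourth smallest p of 12486 genes. Mmp9 held 34.7 ± 16.7 and 12.002 ± 4.74 normalised reads (SD, n = 3 each), 34.6% of the control mean, with a log2 difference of -0.73 (SE 0.28, adjusted p = 0.412). Adam8 held 47.5% of the control mean, at -1.02 (SE 0.26, adjusted p = 0.335), Plaur 49.5%, at -0.87 (SE 0.35, adjusted p = 0.431), and Timp2 54.7%, at -0.90 (SE 0.25, adjusted p = 0.335). Plau held 64.9%, Mmp13 60.1% and Mmp12 75.2%, each with overlap between groups. Adam17 held 95.3%, with a difference of -0.07 (SE 0.18), which was 0.05 without replicate 2 of the untreated Tet2 siRNA cells.

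Tet2 siRNA in LPS-treated cells compared 2 libraries with 3. Again 0 members passed (limma, 0 higher and 0 lower, 7 of 9 at an unadjusted p under 0.05, and 0 by voom), where 0% of genes tested were called in either direction. All 9 differences lay below 0, with a median of -0.89, against -0.02 over all genes and 52.7% of genes below 0. Both Tet2 siRNA libraries lay below all 3 control siRNA libraries for 6 members, Mmp13, Mmp14, Timp2, Adam8, Adam17 and Plau, as they did for 21.0% of all genes tested, while 17.9% lay wholly above.

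Mmp14 held 117 ± 5.63 normalised reads after LPS with control siRNA (SD, n = 3) and 33.5 ± 1.18 with Tet2 siRNA (SD, n = 2), 28.6% of the control mean. The libraries of each group lay close together, and the log2 difference was -1.26 (SE 0.19, adjusted p = 0.0833), the second smallest p of all genes. The Mmp14 difference passed without LPS-treated control siRNA replicate 3 (-1.29, adjusted p = 0.0325), without a filter (adjusted p = 0.0410) and with library weights (adjusted p = 0.0320). Timp2 held 1271 ± 196 (SD, n = 3) and 474 ± 147 (SD, n = 2) normalised reads, 37.3% of the control mean, with a log2 difference of -1.39 (SE 0.28, adjusted p = 0.122). It too passed without LPS-treated control siRNA replicate 3 (-1.52, adjusted p = 0.0460). Adam8 held 5301 ± 935 (SD, n = 3) and 2000 ± 715 (SD, n = 2), 37.7%, with a log2 difference of -1.42 (SE 0.30, adjusted p = 0.122). Mmp9 held 43.0% of the control mean, Plaur 52.2%, Mmp13 54.5%, Plau 56.7%, Mmp12 65.2% and Adam17 79.6%. The Mmp12 difference of -0.81 (SE 0.53) turned to 0.11 without replicate 2 of the Tet2 siRNA cells.

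Averaged over both treatments, which uses all 11 libraries, the Tet2 siRNA difference was lower in Mmp14, Timp2 and Adam8. These are 3 of the 9 tested members lower and 0 higher (limma, adjusted p under 0.05), where 2.88% of genes tested were lower and 2.28% higher. Mmp14 fell by 1.07 on the log2 scale (SE 0.13, adjusted p = 0.00742) and had the smallest p of the 12486 genes. Timp2 fell by 1.14 (SE 0.19, adjusted p = 0.0171) and Adam8 fell by 1.22 (SE 0.20, adjusted p = 0.0171). These 3 were also the members in which Tet2 siRNA libraries lay below control siRNA libraries in both treatments, as in 5.41% of genes tested, while 4.26% lay wholly above in both. The other 6 members did not pass. Mmp9 was at -0.75 (SE 0.21, adjusted p = 0.0574), Plau at -0.80 (SE 0.23, adjusted p = 0.0610), Plaur at -0.88 (SE 0.27, adjusted p = 0.0715), Mmp13 at -0.51 (SE 0.20, adjusted p = 0.134), Mmp12 at -0.68 (SE 0.36, adjusted p = 0.255) and Adam17 at -0.21 (SE 0.13, adjusted p = 0.351). The membrane-bound Mmp14 and its inhibitor Timp2 were both lower, but not in equal proportion. In normalised reads Mmp14 held 22.5% of the control mean untreated and Timp2 54.7%, and after LPS 28.6% and 37.3%. Mmp14 minus Timp2 within a library lay between -5.16 and -4.52 log2 units in untreated Tet2 siRNA cells, a range that spans that of the control siRNA cells. After LPS it lay between -3.28 and -2.72. Untreated Mmp14 with Tet2 siRNA had 2 to 10 reads, where this scale compresses changes, so these ranges do not show an unchanged balance.

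These 3 calls depended on LPS-treated Tet2 siRNA replicate 2, as did those of every other gene called over both treatments. Leaving that replicate out leaves its group with 1 library, whose spread is then assumed to be that of the other groups. Without the replicate Mmp14 was at -1.06, Timp2 at -0.99 and Adam8 at -1.04. Without replicate 2 of both Tet2 siRNA groups, 0 members and 0 genes in all were called. Leaving out LPS-treated control siRNA replicate 2, the Timp2 call ended at -1.10 (adjusted p = 0.0568) and the Adam8 call at -1.23 (adjusted p = 0.0565). The summed normalised reads of the 8 measured microglia and macrophage markers also moved with the siRNA. They were 39443 to 60372 in untreated control siRNA cells and 24259 to 35360 in untreated Tet2 siRNA cells, and 43249 to 51287 and 25886 to 33081 after LPS. Their part in the differences of Mmp14, Timp2 and Adam8 was not tested.

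**Figure D4:**
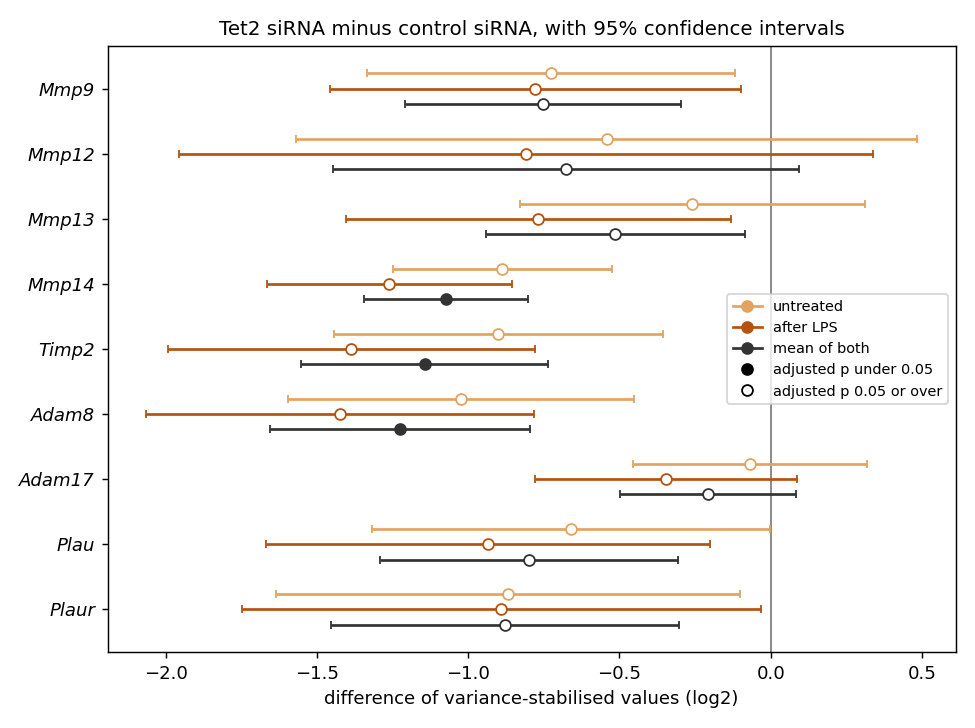
Tet2 siRNA minus control siRNA for the 9 tested members, untreated, after LPS and as the mean of both, as log2 differences of variance-stabilised values with 95% confidence intervals. All points lie below 0. Filled points, those of Mmp14, Timp2 and Adam8 over both treatments, passed an adjusted p of 0.05.

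Across the 11 libraries the members fell into patterns that the group differences describe. The libraries share treatment and siRNA, so correlations are given as descriptions over 11 libraries. Mmp13 and Adam17 ran most alike among the members (r = 0.97), followed by Mmp12 and Plau (r = 0.94). Timp2 and Adam8 ran alike (r = 0.83), while Timp2 and Mmp13 did not (r = -0.08). Among all tested genes, those most like Mmp13 were Gvin1 (r = 1.00) and Mnda (r = 1.00), those most like Mmp12 were Ralgapa2 (r = 0.99) and Apbb2 (r = 0.98), and those most like Plau were Pea15a (r = 0.99) and Apbb2 (r = 0.98). For Adam17 they were Crim1 (r = 1.00) and Rap1b (r = 0.99), and for Plaur Tapbp (r = 0.99) and Tyk2 (r = 0.99). For Mmp14 they were Slc39a1 (r = 0.97) and Gbgt1 (r = 0.97), for Timp2 Rcbtb2 (r = 0.98) and Acox3 (r = 0.97), for Adam8 Mesdc2 (r = 0.98) and Slc44a2 (r = 0.98), and for Mmp9 Il10ra (r = 0.93) and Atp6ap2 (r = 0.91).

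Other proteases of the same families showed a mixed LPS response. Of 19 other matrix metalloprotease genes 3 had enough reads to be tested, Mmp8, Mmp19 and Mmp23. None rose and 2 fell with LPS in control siRNA cells, Mmp19 with a difference of -1.13 (adjusted p = 0.00104) and Mmp23 with -0.66 (adjusted p = 0.0340), whereas Mmp12, Mmp13 and Mmp14 rose. Mmp23 lay near the floor, with at most 19 reads in a library, and Mmp8 had at most 32. In Tet2 siRNA cells Mmp19 was called, at -1.22. Of 12 other ADAM genes 6 were tested and 0 were called with LPS in either cell population (limma), including Adam10, the sheddase closest to Adam17. Of 19 ADAMTS genes 3 were tested. Adamts4, an aggrecanase gene, rose by 2.09 and Adamts1 by 1.39, and Adamts10 was at -1.05 in control siRNA cells. In Tet2 siRNA cells the 3 differences were 1.77, 1.17 and -1.13, and all were called in both. Of 11 cysteine cathepsin and legumain genes 10 were tested, and 1, Ctsc, rose in control siRNA cells (0.53, adjusted p = 0.0406) and 0 in Tet2 siRNA cells. Over all genes tested, 13.2% were higher and 10.4% lower in control siRNA cells, and 7.14% and 4.77% in Tet2 siRNA cells. In lists this small, the counts of the other ADAM and the cathepsin genes are not set apart from those shares.

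Several other protease inhibitor genes rose with LPS, whereas Timp2 did not pass. Of 18 listed, which include Timp3 and Timp4, 9 were tested, and 5 rose in control siRNA cells and 4 in Tet2 siRNA cells, with 0 lower (medians 2.01 and 1.40). Serpinb9, a granzyme B inhibitor, rose by 3.44 in control siRNA cells and Slpi, a leukocyte protease inhibitor, by 1.98 in Tet2 siRNA cells. Serpina3g, with means of 2.61 and 0.53 normalised reads in untreated control and Tet2 siRNA cells, met the filter only through LPS-treated libraries. So did Serpina3f, which had 0 reads in every untreated library. After LPS its mean was 193 ± 194 normalised reads with control siRNA (SD, n = 3), a spread as wide as the mean, and 42.8 ± 21.0 with Tet2 siRNA (SD, n = 2). Among 9 tested genes of the plasminogen and coagulation system, F3, the tissue factor gene, rose by 2.15 with control siRNA and 1.71 with Tet2 siRNA. Thbd, which encodes thrombomodulin, was at -2.87 and -2.95, in that order. Hpn, the hepsin gene, was at 1.10 and 0.96, and F10, the factor X gene, was called with control siRNA at 1.03. Hpn had at most 20 reads in a library, with means of 0.23 and 0.48 normalised reads in untreated control and Tet2 siRNA cells. It met the filter on low values only through LPS-treated libraries, so its calls are not independent of the filter. In all, Hpn included, 4 of the 9 rose and 1 fell in control siRNA cells and 2 rose and 1 fell in Tet2 siRNA cells. The shares of all genes tested, higher and lower, were 13.2% and 10.4% in control siRNA cells and 7.14% and 4.77% in Tet2 siRNA cells.

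Factors that activate or traffic these proteases gave a mixed picture. Of 8 tested, 4 rose and 1 fell in control siRNA cells, and 3 rose and 0 fell in Tet2 siRNA cells. For this and the lists below, 13.2% of all genes tested were higher and 10.4% lower in control siRNA cells. In Tet2 siRNA cells the shares were 7.14% and 4.77%. Furin, the convertase that activates MMP14 and ADAM17, had differences of 2.04 (SE 0.27, adjusted p = 9.61e-05) in control siRNA and 1.29 (SE 0.30, adjusted p = 0.0120) in Tet2 siRNA cells. Rhbdf2, the iRhom that brings ADAM17 to the surface of myeloid cells, had 1.71 (SE 0.26, adjusted p = 3.42e-04) and 1.89 (SE 0.29, adjusted p = 6.94e-04). Cd44, the gene of a hyaluronan receptor, was at 1.60 and 1.36. Hpse, the heparanase gene, fell by 1.06 in control siRNA cells. Of 14 tested genes of ADAM17 substrates, 8 rose and 2 fell in control siRNA cells, and 5 rose and 2 fell in Tet2 siRNA cells. The 14 include Vcam1, which had a mean of 0 normalised reads in both untreated groups and met the filter only through LPS-treated libraries. Tnf rose by 5.44 and 5.69, Icam1 by 3.85 and 3.59 and Tnfrsf1b by 3.22 and 2.98, whereas Mertk was at -1.53 and -1.998 and Il6ra at -1.85 and -1.40, all of them called. Of 10 tested matrix protein genes 3 rose, led by Agrn at 3.25, and 1 fell, Col4a1 at -0.999, in control siRNA cells, and 2 rose and 1 fell in Tet2 siRNA cells. Lamc1, a laminin gene, was at 1.298 and Col4a2, a basement membrane collagen gene, at 1.28 with control siRNA. Col4a1 had at most 32 reads in a library and Col4a2 at most 25, so both lay near the floor. Col4a2, with a mean of 0.47 normalised reads in untreated control siRNA cells, met the filter only through LPS-treated libraries. In Tet2 siRNA cells Agrn was at 2.96 and Col4a1 at -0.95, and Col4a2 went from 0 reads in every untreated library to 6.87 ± 0.913 normalised reads (SD, n = 2).

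With Tet2 siRNA, 0 genes of these 9 lists were called in untreated or in LPS-treated cells alone (limma). Over both treatments 0 rose and 6 fell, where 2.28% of all genes tested were higher and 2.88% lower. Those that fell were 3 of 14 tested ADAM17 substrate genes, 1 of 10 cathepsin and legumain genes, 1 of 9 other inhibitor genes and 1 of 3 other matrix metalloprotease genes. Axl, a receptor tyrosine kinase shed by ADAM proteases, was at -1.98 (SE 0.26, adjusted p = 0.00742) and Csf1r at -0.76 (SE 0.13, adjusted p = 0.0182), both among ADAM17 substrates. Ctsh was at -1.07 (adjusted p = 0.0279), Mmp19 at -0.71 (adjusted p = 0.0277) and Cst7, a cystatin gene, at -0.67 (adjusted p = 0.0328). No ADAMTS, other ADAM, plasminogen system, activator or matrix protein gene was called over both treatments. With 3 to 10 genes tested in each of these lists, that is near the 2.88% of all genes called lower.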

How the data were processed

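Strand-specific libraries of polyadenylated RNA were made from BV2 cells, per the labels' protocols. Trim Galore 0.3.3, TopHat2 2.0.9, build mm9 and DESeq2 are named in the submitters' processing notes; how reads were counted, with which annotation and strand setting, is not given in the sources used here. The authors deposited variance-stabilised log2 values, 1 column per library. The transform was inverted to obtain the normalised reads printed. Divided by the size of 1 read, they were whole in 100% of cases, within 0.01 read.

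limma 3.58.1 in R 4.3.3 was fitted to the deposited log2 values of all 11 libraries, 1 mean per group, with a variance trend, two-sided moderated tests and Benjamini-Hochberg adjustment over the 12486 genes that exceeded the table's minimum by 1 log2 unit or more in at least 2 libraries. Calls are at an adjusted p under 0.05. Exon lengths came from GENCODE (GRCm38, lengths only). The code was tested on simulated data. Members, lists and tests were chosen with earlier results of these data known. Named genes were every member, and of each list the called genes, up to 3 per direction for LPS and 2 for Tet2 siRNA, except 1 that is not reported here. Replicate numbers were not taken to pair libraries, which the values leave unsettled: 8 of 15 same-number pairs had deviations correlated over 0.1 (r from -0.28 to 0.63). Alternatives were other filters, scalings, variance models, library weights, voom on recovered reads (with the authors' size factors, a form chosen after plain library totals had been tried), a replicate block, and libraries left out.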

Additional observations from a re-analysis of the deposited data

How the results depend on the processing

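Of 1170 recomputed member differences 1082 kept their direction and their side of the threshold, 34 lost a call, 19 gained one and 35 changed sign. Depth limits Mmp9, Mmp14 and untreated Mmp13, whose reads were few, and Timp1, with at most 3 reads. The cause of the changes below was not tested, except that omitting the filter adds genes with few or no reads to those adjusted over. The weight estimation did not converge and gave 44.3 to 1 library, replicate 3 of the untreated Tet2 siRNA cells, and 0.172 to 1.93 to the others, so that its counts rest on that library. Voom was first run with plain library totals and then, after its output was seen, with the authors' size factors. The values given are those of the second form.

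For LPS in Tet2 siRNA cells 3 members were higher without a filter, and 2 to 6 when a library was left out. For LPS in control siRNA cells that range was 5 to 6. For Tet2 siRNA in untreated cells 4 members were lower with library weights, where 729 of 12486 genes were lower. For Tet2 siRNA in LPS-treated cells 1 was lower without a filter and 1 with library weights, and 0 to 2 when a library was left out. For Tet2 siRNA over both treatments 1 was lower without a filter, 7 with library weights, 1 without the 2 libraries with the fewest reads, 0 without replicate 2 of both Tet2 siRNA groups (chosen after seeing the data), and 0 to 6 when a library was left out. Counts over all genes moved with the setting too. Over both treatments 359 genes were lower in the main fit, 4 of 26061 without a filter and 1209 with library weights. Without the 2 libraries with the fewest reads 14 were lower. In LPS-treated cells 1 gene was lower without a filter and 11 with library weights. For LPS in Tet2 siRNA cells 891 genes were higher in the main fit and 659 without a filter. With the replicate block the members called were as many as without it (6, 5, 0, 0, 0 and 3), and no member's call changed. Whether the numbers pair the libraries is not settled, and 5 of 11 correlated best with a library of their own number.

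Signs changed only in differences that had not passed. With LPS in control siRNA cells Adam8 was at -0.23 with quantile normalisation and ranged from -0.090 to 0.41 when a library was left out. With LPS in Tet2 siRNA cells such ranges were -0.61 to 0.12 for Adam8 and -0.21 to 0.76 for Mmp9. With Tet2 siRNA in untreated cells Adam17 ranged from -0.20 to 0.053, and Mmp12 was at 0.031 without the 2 libraries with the fewest reads. With Tet2 siRNA in LPS-treated cells Mmp12 ranged from -1.72 to 0.11. Without replicate 2 of both Tet2 siRNA groups, Adam17 was at 0.053 untreated, and Mmp12 at 0.11 after LPS and 0.042 over both treatments. For the difference between LPS responses, that setting gave 0.41 for Mmp9, 0.13 for Mmp12, 0.033 for Plau and 0.17 for Plaur. The same difference ranged with a library left out from -0.54 to 0.43 for Mmp9, -1.18 to 0.65 for Mmp12, -0.88 to 0.33 for Plau and -0.42 to 0.38 for Plaur. It was 0.12 for Mmp9 and 0.080 for Plaur with the replicate block, 0.21 and 0.00052 with library weights, 0.010 for Plau and 0.060 for Plaur with quantile normalisation, and 0.27 for Mmp14 with voom.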
